A study of Mus musculus with 15 samples.

Results

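The mRNA of 10 genes of the NF-κB system was followed from naive B cells to plasmablasts, of 21669 genes with a symbol in the deposited table. They were taken by symbol, whatever their values, but with earlier results of these data known. The 10 are the 5 subunits of the Rel family (*Nfkb1*, *Nfkb2*, *Rel*, *Rela*, and *Relb*), the classical inhibitors *Nfkbia*, *Nfkbib*, and *Nfkbie*, the feedback inhibitor *Tnfaip3*, and the nuclear IκB protein gene *Bcl3*. All 10 passed the filter on low values.

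RNA-seq had been performed on female C57BL/6J wild-type mice, which the methods of the study describe as 6 to 9 weeks old. Naive B cells (nB) were the CD43- cells of the spleen, not cultured and not treated. Activated B cells (actB, sorted as B220+GL7+CD138-) and plasmablasts (Pb, sorted as CD138+) were taken from such cells after 3 days of culture with LPS, a ligand of the receptor TLR4, together with IL2 and IL5. Cultures received either the EZH2 inhibitor GSK343 at 2 μM or its solvent DMSO, which gives 5 groups of 3 deposited samples each (nB, actB with DMSO, actB with GSK343, Pb with DMSO, and Pb with GSK343). The samples labelled Pb with GSK343 list Il6 where all other cultured samples list Il5. If this label holds, GSK343 and the cytokine cannot be told apart in that group. No naive sample was cultured with DMSO, so stage, stimulation, culture, and solvent cannot be told apart in comparisons with nB.

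Rel family proteins bind DNA as dimers at κB sites. In resting cells most dimers are held in the cytoplasm by IκB proteins, which *Nfkbia* (IκBα), *Nfkbib* (IκBβ), and *Nfkbie* (IκBε) encode. Signals from Toll-like receptors, the B cell receptor, or CD40 lead to phosphorylation and loss of IκB, and dimers that enter the nucleus induce, among other genes, *Nfkbia* and *Tnfaip3* (A20), which then restrain the pathway. *Rel* (c-Rel) and *Rela* (p65) carry transactivation domains, *Nfkb1* encodes p105 and its product p50, and *Relb* pairs mostly with p52, the product of *Nfkb2* in the alternative pathway. *Bcl3* acts in the nucleus on p50 and p52 homodimers.

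In the mm9 build the genes lie on 7 chromosomes. *Nfkb1* spans chr3:135247619-135354511, *Tnfaip3* chr10:18720716-18735463, *Rel* chr11:23641514-23670970, *Nfkbia* chr12:56590398-56593634, and *Nfkbie* chr17:45692665-45700118. *Rela* (chr19:5637483-5648130) and *Nfkb2* (chr19:46379227-46386580) share chromosome 19, and *Relb* (chr7:20191566-20214787), *Bcl3* (chr7:20393811-20408119), and *Nfkbib* (chr7:29543270-29552531) share chromosome 7. Exons of *Nfkb2* share bases with *Psd*, those of *Nfkbib* with *Sirt2*, and those of *Bcl3* with the processed transcript *Gm16175*, each on the other strand. Whether strand was used in counting is not stated, so that for these 3 genes reads of the partner cannot be told apart from their own.

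The 250 bases before the start were searched for the κB consensus, a motif of 10 bases, on both strands. RefSeq promoters (GRCm38.p6) were given for 8 members, not for *Nfkb1* and *Relb*, and 5 of these 8 genes held a match. Of all 32851 promoters of this length 3.9% held a match, and of the 8572 genes tested that matched by symbol 5.39% did. The promoters with a match are printed 5′ to 3′ on the strand of the gene, for the first start listed of each gene, with bases of a match in capitals, and matches that overlap are run together.
Nfkb2: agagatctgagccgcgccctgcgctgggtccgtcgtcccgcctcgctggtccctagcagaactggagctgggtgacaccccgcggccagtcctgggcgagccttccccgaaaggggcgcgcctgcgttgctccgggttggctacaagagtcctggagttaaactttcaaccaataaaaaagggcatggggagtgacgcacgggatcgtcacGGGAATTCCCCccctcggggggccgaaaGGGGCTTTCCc
Rel: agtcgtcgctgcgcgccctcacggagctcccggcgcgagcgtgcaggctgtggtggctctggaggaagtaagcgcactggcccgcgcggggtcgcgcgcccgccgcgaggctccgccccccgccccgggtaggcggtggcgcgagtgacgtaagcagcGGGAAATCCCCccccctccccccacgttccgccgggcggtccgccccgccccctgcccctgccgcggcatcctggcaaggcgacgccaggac
Nfkbia: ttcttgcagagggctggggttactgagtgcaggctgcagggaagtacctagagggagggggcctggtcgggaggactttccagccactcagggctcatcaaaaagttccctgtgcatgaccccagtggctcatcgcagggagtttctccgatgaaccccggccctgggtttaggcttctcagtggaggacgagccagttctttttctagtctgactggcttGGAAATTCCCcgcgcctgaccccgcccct
Nfkbie: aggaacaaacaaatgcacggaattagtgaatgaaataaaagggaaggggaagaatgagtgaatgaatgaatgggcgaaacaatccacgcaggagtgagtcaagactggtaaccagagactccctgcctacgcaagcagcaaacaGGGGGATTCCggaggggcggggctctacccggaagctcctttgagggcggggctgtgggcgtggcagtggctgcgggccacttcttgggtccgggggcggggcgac
Tnfaip3: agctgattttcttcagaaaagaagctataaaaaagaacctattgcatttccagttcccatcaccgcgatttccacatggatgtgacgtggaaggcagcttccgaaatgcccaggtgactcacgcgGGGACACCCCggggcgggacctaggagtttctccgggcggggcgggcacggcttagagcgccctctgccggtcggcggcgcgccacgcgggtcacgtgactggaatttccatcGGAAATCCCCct
They lie at chr19:46304487-46304736 on the plus strand (*Nfkb2*), chr11:23770970-23771219 on the minus strand (*Rel*), chr12:55492648-55492897 on the minus strand (*Nfkbia*), chr17:45555450-45555699 on the plus strand (*Nfkbie*), and chr10:19015411-19015660 on the minus strand (*Tnfaip3*), all in GRCm38.p6. In *Nfkb2* 2 overlapping matches begin 39 and 38 bases before the start, and another begins 11 bases before it. The match of *Nfkbia* begins 29 bases before the start, that of *Nfkbie* 106 bases before it, the overlapping matches of *Rel* 92 and 91 bases before it, and those of *Tnfaip3* 125 and 12 bases before it. *Rela*, *Nfkbib*, and *Bcl3* held no match in their windows. A match is a likeness of letters and was not measured as a binding site here. The part of matches in the differences between groups was not tested.

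Levels are given as RPKM, reads scaled to the total of the library and divided by gene length in kilobases, and differences as differences of log2(RPKM + 0.25). Differences were tested by limma across 11299 genes with Benjamini-Hochberg adjustment, and a gene was called where the adjusted p was below 0.05. The methods call the samples of a group biological replicates. Between 19421830 and 26307413 reads were counted per library, and the members held 526 to 11591 reads in each. The columns of nB replicates 1 and 2 differed by less than sampling noise (chi-square of 0.009579 per degree of freedom, against at least 3.577 in the 14 other pairs of a group), and 79.5% of genes had the same number of reads. They were counted as 1 library, so that nB has n = 2. In each cultured group the library numbered 2 stood farther from the others (7.642 to 29.71 per degree of freedom) than numbers 1 and 3 from each other (3.577 to 6.066). Leaving number 2 out of every cultured group changed 2 calls among the members, both given with the GSK343 results. The plasmablast markers summed to 3083 to 3234 RPKM in Pb with DMSO and to 485 to 522 RPKM in actB with DMSO, all 6 of them higher in Pb. Not every marker followed the stages. *Sdc1*, which encodes CD138, was lower in actB with DMSO (mean of 0.665 RPKM) than in nB (5.17 RPKM) and highest in Pb with DMSO (29.7 RPKM), and the proliferation gene *Mki67*, listed with the activated cells, was higher in Pb (282 RPKM) than in actB (183 RPKM).

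The first comparison was of actB with DMSO and nB, which differ in stage, stimulation, culture, and solvent at once. *Nfkb2*, *Rel*, *Rela*, *Relb*, and *Nfkbie* were lower in actB, *Nfkbia* and *Bcl3* were higher, and *Nfkb1*, *Nfkbib*, and *Tnfaip3* did not pass the test. This is 7 of 10 members called, against 77.2% of all genes tested, so that the share of members called is near the background. By direction, 5 of 10 were lower against 36.3% of all genes, and 2 were higher against 40.9%. The median difference over the 10 members was -0.255, and over all genes 0.053. In bulk RNA, fewer cells of a type and less RNA per cell cannot be told apart. RPKM is a share of the reads of a library, so a lower RPKM need not be less mRNA per cell. The paper describes an amplification of the whole transcriptome in dividing B cells in vivo. RNA per cell was not measured here, and this limit holds for every comparison between stages.

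*Rel*, the subunit made mainly by lymphoid cells, had 61.4 and 67.3 RPKM in nB, 30.5, 33.4, and 29.2 RPKM in actB with DMSO, and 14.2, 16.8, and 14.1 RPKM in Pb with DMSO. Each stage lay apart from the one before, with no overlap of libraries. The difference from nB to actB was -1.05 ± 0.09 (SE, adjusted p = 3.45e-07), a 2.06-fold fall. *Rela*, the other main activating subunit, had 59.5 and 52.9 RPKM in nB and 31.3, 32.1, and 31.9 RPKM in actB, which was -0.82 ± 0.05 (adjusted p = 1.83e-08).

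Subunits of the alternative pathway also fell. *Nfkb2* had 69.1 and 62.3 RPKM in nB and 38.7, 40.0, and 38.1 RPKM in actB (-0.75 ± 0.08, adjusted p = 3.07e-06). *Relb*, the least abundant subunit in every group, had 25.5 and 24.8 RPKM in nB and 14.5, 15.7, and 15.7 RPKM in actB (-0.71 ± 0.08, adjusted p = 4.95e-06). All actB libraries lay below both nB libraries for each of these genes.

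*Nfkb1* stood apart from the other subunits. Its level was 84.4 and 80.5 RPKM in nB and 88.4, 92.8, and 91.7 RPKM in actB, where all libraries were above those of nB. The difference of 0.14, with a 95% confidence interval from 0.0028 to 0.28, had an adjusted p of 0.0592 and was not called. With all 15 columns as deposited it was called (adjusted p = 0.0412), but that fit counts the same nB library under both its numbers. Under quantile normalization the difference was -0.00384 (limma adjusted p = 0.962).

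Of the inhibitors and the nuclear IκB gene *Bcl3*, *Nfkbia* had 126 and 122 RPKM in nB and 159.8, 173, and 159 RPKM in actB (0.40 ± 0.08, adjusted p = 0.000677), the highest level of all 10 members in every group. *Bcl3* rose further, from 30.5 and 24.7 RPKM to 60.997, 64.5, and 56.8 RPKM (1.14 ± 0.11, 2.20-fold, adjusted p = 1.2e-06). *Nfkbie* had 57.9 and 59.5 RPKM in nB and 43.6, 54.8, and 43.6 RPKM in actB. Its difference of -0.32 ± 0.11 was called (adjusted p = 0.021), but not without either nB library (0.0658 without replicate 1-2 and 0.0992 without replicate 3) and not without actB DMSO replicate 1 or 3 (0.0713 and 0.072).

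For *Tnfaip3* the levels were 35.2 and 32.8 RPKM in nB and 35.8, 38.7, and 38.2 RPKM in actB (0.14 ± 0.09, adjusted p = 0.174). *Nfkbib* had 26.4 and 22.1 RPKM in nB and 23.5, 19.2, and 20.7 RPKM in actB, which overlap (-0.19 ± 0.12, adjusted p = 0.148). With the replicate number as a block *Nfkbib* was called lower (adjusted p = 0.00982), so that 8 members were called, against 81.2% of all genes in that fit. *Nfkbib* was also called lower under median scaling (adjusted p = 0.0478), quantile normalization (0.0444), and in edgeR with RLE factors (0.0346) or with the block (0.00278). It was called too with all 15 columns (adjusted p = 0.0482), where the same nB library is counted under both its numbers.

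Markers of other cells moved with this comparison. The 9 myeloid markers in the table summed to 195 to 240 RPKM in nB, 4.18 to 5.47 RPKM in actB with DMSO, and 0.501 to 0.949 RPKM in Pb with DMSO, and of the 7 that were tested 6 were lower in actB than in nB. *Lyz2*, the lysozyme of macrophages, had 152 to 180.4 RPKM in nB and at most 0.588 RPKM in actB with DMSO, and *S100a8* and *S100a9* were at 0 in all 12 cultured libraries. *Itgam*, which was not called, had 3.67 to 4.38 RPKM in nB and 3.50 to 4.66 RPKM in actB with DMSO. The 8 T and NK cell markers summed to 28.4 to 30.4 RPKM in nB and to 0.186 to 0.665 RPKM in actB with DMSO, and all 8 were lower in actB. Of all genes 36.3% were called lower. These 8 genes and the 6 myeloid markers called lower would not have passed the filter on low values without the nB columns. Their direction was thus set by the filter, and the calls add nothing to the levels. The nB cells were made by CD43 depletion and the other groups by sorting, and the part of these markers in the differences from nB was not tested.

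**Figure D1:**
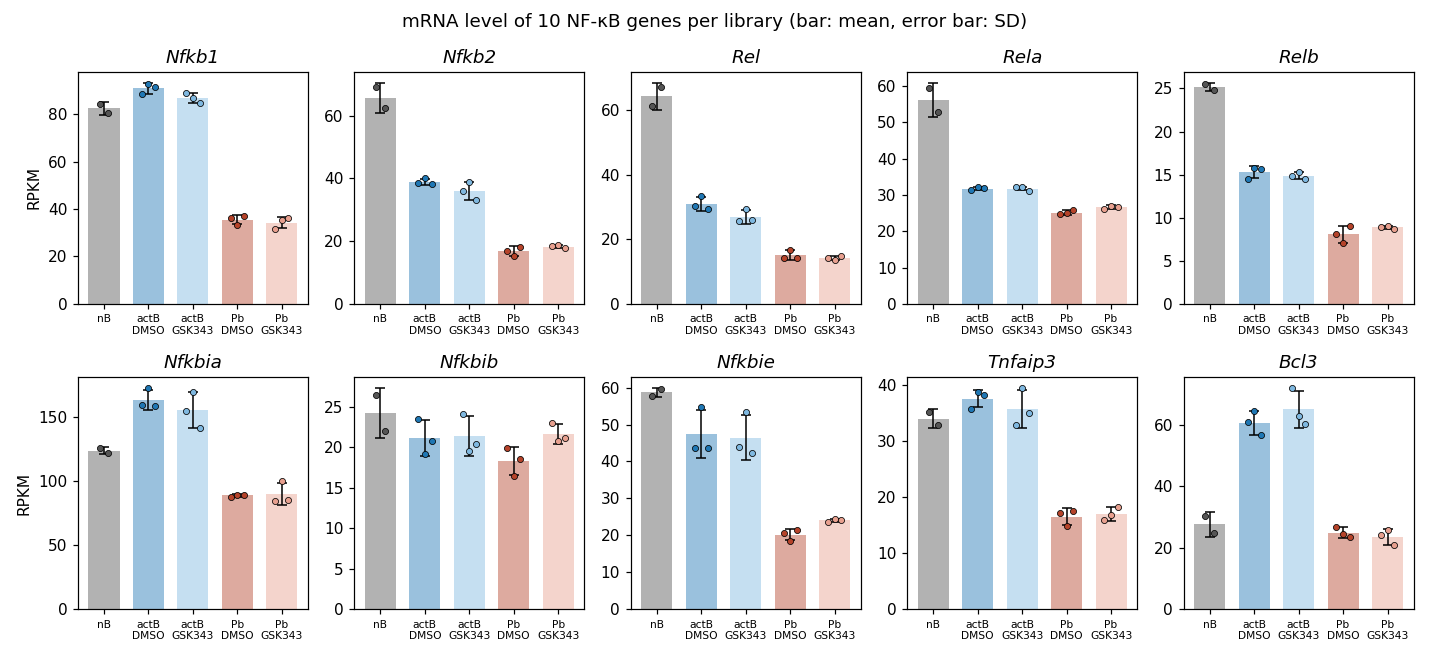
The RPKM of each of the 10 genes is plotted in its own panel with its own axis from 0, for the 5 groups, with a bar for the mean, an error bar for the SD, and a point for each library (2 for nB, 3 for each other group). *Rel* shows steps down from nB to actB to Pb, *Bcl3* is highest in both actB groups, and the DMSO and GSK343 groups of each cell type lie close together.

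The next comparison was of Pb with DMSO and actB with DMSO, cells of the same kind of culture. They were sorted as CD138+ and as B220+GL7+CD138-, so that the gates did not differ in CD138 alone. Here 9 of 10 members were lower in Pb, none was higher, and *Nfkbib* did not pass the test. Of all genes 42.4% were called lower and 69.7% were called in either direction. The median difference was -1.11 over the members and -0.116 over all genes. This comparison shares the actB libraries with the first, and the next one shares libraries with both, so that they are not separate evidence.

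*Nfkb1* showed the largest difference. It had 88.4, 92.8, and 91.7 RPKM in actB and 36.4, 33.3, and 36.9 RPKM in Pb, a 2.55-fold fall (-1.35 ± 0.06, adjusted p = 7.82e-10). Of all genes tested 5.28% had a lower difference. *Nfkb2* fell to 17.0, 15.1, and 18.2 RPKM (-1.21 ± 0.07, adjusted p = 1.87e-08). *Relb* fell to 8.07, 7.10, and 9.04 RPKM (-0.91 ± 0.07, adjusted p = 2.4e-07), and *Rel*, whose values are given above, by 1.04 ± 0.08 on the log2 scale (adjusted p = 1.91e-07).

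*Rela* fell the least of the 5 subunits. It had 24.6, 25.0, and 25.8 RPKM in Pb, 1.26-fold below actB (-0.33 ± 0.05, adjusted p = 3.55e-05), and 34.3% of all genes had a lower difference. Its 95% confidence interval, -0.43 to -0.23, lay apart from those of the other subunits, of which the nearest was that of *Relb* at -1.07 to -0.75. A difference between genes was not tested.

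The inhibitors *Nfkbia*, *Nfkbie*, and *Tnfaip3* and the nuclear IκB gene *Bcl3* fell as well. *Nfkbia* had 87.9, 89.5, and 89.5 RPKM in Pb (-0.88 ± 0.07, adjusted p = 3.42e-07), and *Nfkbie* 20.7, 18.4, and 21.5 RPKM (-1.21 ± 0.10, adjusted p = 3.2e-07). *Tnfaip3*, the deubiquitinating and ubiquitin-editing enzyme A20, had 17.2, 14.7, and 17.6 RPKM (-1.18 ± 0.08, adjusted p = 6.82e-08). *Bcl3* returned to 26.9, 24.5, and 23.4 RPKM, a 2.42-fold fall from actB (-1.28 ± 0.10, adjusted p = 2.05e-07). For each of these genes all Pb libraries were below all actB libraries.

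*Nfkbib* was the exception, with 19.9, 16.5, and 18.5 RPKM in Pb and 19.2 to 23.5 RPKM in actB (-0.20 ± 0.10, adjusted p = 0.0992). With the replicate block it was called lower (adjusted p = 0.00571), which makes 10 of 10 members, against 75.4% of all genes in that fit. Without actB DMSO replicate 2 it was called too (adjusted p = 0.0481).

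Between these stages the B cell markers summed to 1722 to 1961 RPKM in actB with DMSO and 908 to 931 RPKM in Pb with DMSO, all 6 lower in Pb. Centring each library on its median moved the median difference of all genes by 0.111 on the log2 scale and the calls from 3086 higher and 4791 lower to 3813 higher and 3899 lower. The same 9 members were called lower under that scaling.

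Against nB, Pb with DMSO had 9 of 10 members lower, where 41.1% of all genes were called lower and 80.6% in either direction. The largest differences were those of *Rel* (-2.08 ± 0.09, a 4.23-fold fall) and *Nfkb2* (-1.96 ± 0.08, 3.88-fold), followed by *Relb* (-1.62 ± 0.08) and *Nfkbie* (-1.53 ± 0.11). *Nfkb1* (-1.21 ± 0.06), *Rela* (-1.15 ± 0.05), and *Tnfaip3* (-1.04 ± 0.09) fell by 2.05-fold to 2.31-fold. *Nfkbia* fell by 0.48 ± 0.08 on the log2 scale, and the limma adjusted p of these 8 genes was 0.000138 or below.

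*Nfkbib* was called lower in Pb than in nB (-0.40 ± 0.12, adjusted p = 0.0072), but not without nB replicate 1-2 (adjusted p = 0.109). *Bcl3* was not called, and its 23.4 to 26.9 RPKM in Pb overlapped the 24.7 and 30.5 RPKM of nB (-0.14, 95% confidence interval from -0.39 to 0.11, adjusted p = 0.268). With the replicate block *Bcl3* was called lower (adjusted p = 0.0331), which again makes 10 of 10 members, against 84.7% of all genes. All 7 myeloid markers tested and all 8 T and NK cell markers were lower in Pb than in nB, where 41.1% of all genes were called lower. All of these markers but *Itgam* would not have passed the filter on low values without the nB columns, so that their direction was set by it. The part of these markers in the differences from nB was not tested.

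Ordered by level, *Nfkb2*, *Rel*, *Rela*, *Relb*, and *Nfkbie* stepped down from nB through actB to Pb. *Nfkb1* and *Tnfaip3* were lowest in Pb, and their levels in nB and actB, where all actB libraries were the higher, did not pass the test of a difference. *Nfkbia* and *Bcl3* were highest in actB, and for *Bcl3* nB and Pb could not be ordered. *Nfkbib* had the narrowest range of the 10 genes, with group means between 18.3 and 24.2 RPKM.

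**Figure D2:**
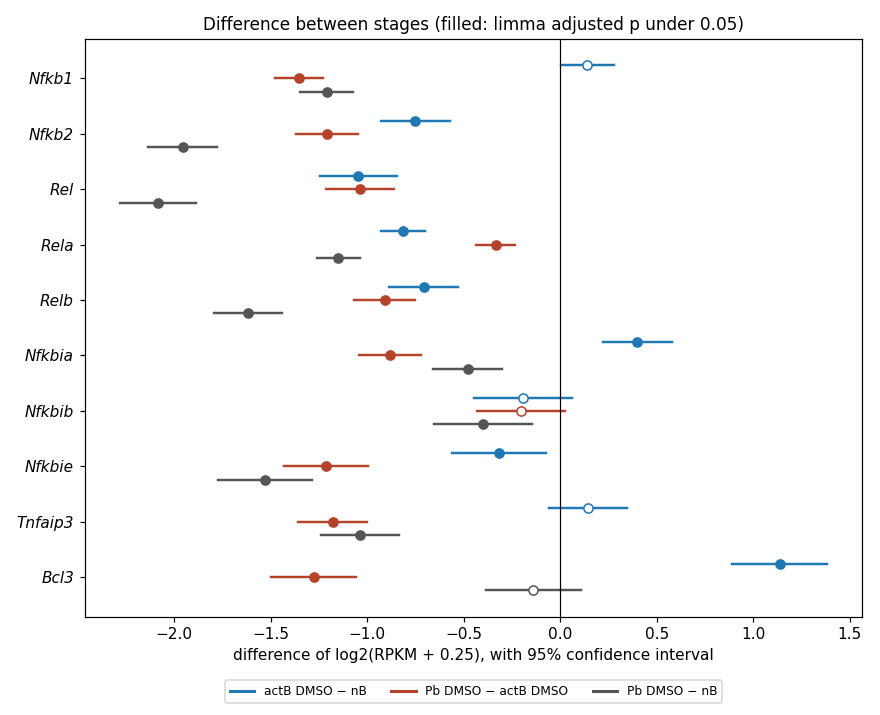
Differences of log2(RPKM + 0.25) are plotted for each gene in the 3 comparisons between stages, with lines for the 95% confidence interval and filled points for an adjusted p below 0.05. In Pb with DMSO against actB with DMSO 9 of 10 points are filled and below 0, while in actB against nB they lie on both sides.

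As a description, the summed RPKM of the 5 subunits was 293.9 ± 8.57 (SD, n = 2) in nB, 208 ± 5.46 (n = 3) in actB with DMSO, and 100.6 ± 3.43 (n = 3) in Pb with DMSO. Within that sum *Nfkb1* made up 28.1% ± 0.133 in nB, 43.7% ± 0.568 in actB, and 35.3% ± 1.03 in Pb. *Rela* made up 19.1% ± 1.04 in nB, 15.3% ± 0.244 in actB, and 25.0% ± 0.609 in Pb. The share of *Rel* was 21.9% in nB, 14.9% in actB, and between 13.6% and 17.2% in Pb, and that of *Nfkb2* went from 22.3% to 18.7% and 16.7%. *Relb* held 7.36% to 8.56% in these 3 groups.

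The ratio of *Rel* to *Rela* mRNA was 1.03 and 1.27 in the nB libraries, 0.917 to 1.04 in actB with DMSO, and 0.547 to 0.670 in Pb with DMSO. The 3 classical inhibitors summed to 0.701 and 0.708 of the subunits in nB, 1.08 to 1.15 in actB, and 1.24 to 1.28 in Pb. *Nfkbia* made up 59.9% ± 0.0106 (SD, n = 2) of the inhibitor sum in nB, 70.0% to 71.2% in actB, and 68.4% to 71.9% in Pb. With GSK343 the subunit sum was 189.5 to 202.6 RPKM in actB, below the 203.4 to 214 RPKM with DMSO. In Pb it was 98.9 to 104.2 RPKM, which overlapped the 97.3 to 104 RPKM with DMSO. These sums were not tested, and the main fit called no subunit with GSK343. Protein was not measured, and mRNA ratios need not follow it.

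**Figure D3:**
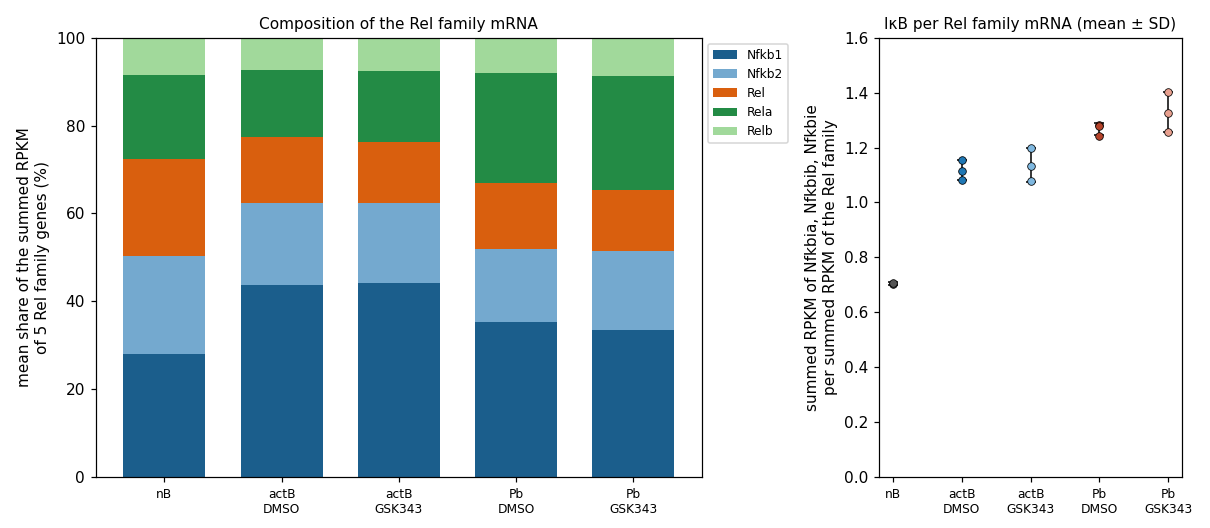
The left panel stacks the mean share of each subunit in the summed RPKM of the 5 Rel family genes, in percent, and the right panel plots the summed RPKM of *Nfkbia*, *Nfkbib*, and *Nfkbie* per summed RPKM of the family, with points for libraries and error bars for the SD. The share of *Nfkb1* is largest in actB, that of *Rela* in Pb, and the ratio of inhibitors is near 0.705 in nB and above 1 in the cultured groups.

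Genes whose levels followed a member most closely were found by the root mean square (RMS) difference of their centred log2 values over 14 libraries, among 10524 genes. *Nfkb1* was nearest to *Rbck1* (RMS 0.0732) and *Sri* (0.0901), *Tnfaip3* to *Sri* (0.0898) and *Nipsnap1* (0.0986), and *Rela* to *Pik3r4* (0.0605) and *Smg6* (0.0644). The nearest genes of *Nfkb2* were *Myo1c* (0.116) and *Sema4d* (0.119), those of *Rel* were *Rabep2* (0.111) and *5031414D18Rik* (0.124), and those of *Relb* were *Prpsap2* (0.0821) and *Stradb* (0.0847). For the inhibitors they were *Syngr2* (0.0839) and *Tyw3* (0.0960) for *Nfkbia*, *Rab7* (0.0801) and *Snx3* (0.0801) for *Nfkbib*, and *Bin3* (0.108) and *Cds2* (0.119) for *Nfkbie*. *Bcl3* was nearest to *Dpysl2* (0.122).

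Among the members themselves *Nfkb1* and *Tnfaip3* were the closest pair, with an RMS difference of 0.132, and 19 genes lay closer to *Nfkb1* than *Tnfaip3* did. *Nfkb2* and *Relb* followed at 0.153. *Nfkbib* had its nearest member, *Rela*, at 0.298, and *Bcl3* its nearest, *Nfkbia*, at 0.337. The libraries share their depth and stage, so these values describe likeness of pattern and nothing else.

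Other genes of the pathway were described by lists, to be read against the shares of all genes, which were 40.9% higher and 36.3% lower in actB against nB, and 27.3% higher and 42.4% lower in Pb against actB. Of 10 kinases and adaptors of the last steps 3 were higher and 6 lower in actB than in nB, with a median difference of -0.447 where all genes had 0.053. These 9 of 10 called stand beside 77.2% of all genes. *Ikbke*, a kinase related to the IκB kinases, rose the most, from 6.39 ± 1.12 to 13.8 ± 1.53 RPKM (1.08 ± 0.18, adjusted p = 9.98e-05). *Map3k14*, the NF-κB inducing kinase of the alternative pathway, fell the most, from 21.0 ± 1.12 to 7.17 ± 0.237 RPKM (-1.52 ± 0.07, adjusted p = 1.01e-09). In Pb against actB 1 was higher and 6 were lower (median -0.372, all genes -0.116), 7 of 10 beside 69.7%. There *Tbk1*, another IκB kinase relative, rose by 0.24 ± 0.04 (adjusted p = 0.000315), and *Ikbke* fell the most (-1.27 ± 0.16, adjusted p = 1.22e-05).

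Of 12 receptor-proximal adaptors and kinases 3 were higher and 7 lower in actB than in nB (median -0.403, all genes 0.053), which is 10 of 12 called and near the 77.2% of all genes. *Ticam1*, the TRIF adaptor of TLR3 and TLR4, rose the most (0.65 ± 0.06), and *Tab2*, a partner of the kinase TAK1, fell the most (-0.80 ± 0.06). In Pb against actB 3 were higher and 4 lower (median -0.0987, all genes -0.116), 7 of 12 called where 69.7% of all genes were. *Ticam1* rose again, from 22.6 ± 1.44 to 37.0 ± 1.28 RPKM (0.71 ± 0.06, adjusted p = 2.15e-07).

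Of 9 other inhibitors 1 was higher and 4 were lower in actB than in nB (median -0.108, all genes 0.053), and 5 of 9 called is a lower share than the 77.2% of all genes. The 1 that rose was *Commd1* (0.62 ± 0.12), and *Nfkbid*, which encodes the nuclear IκB protein IκBNS, fell from 160.6 ± 1.48 to 28.3 ± 2.68 RPKM (-2.50 ± 0.11, adjusted p = 8.12e-10), a larger difference than that of any member in this comparison. In Pb against actB 2 were higher and 5 lower (median -0.818, all genes -0.116), 7 of 9 called beside 69.7%. *Tnip2*, a binding partner of A20, rose (0.90 ± 0.11, adjusted p = 1.18e-05), and *Irak3*, an inhibitor of Toll-like receptor signalling, fell the most (-1.80 ± 0.09, adjusted p = 3.68e-09).

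Of 18 known target genes 12 were higher and 3 lower in actB than in nB (median 0.79, all genes 0.053), and in Pb against actB 5 were higher and 12 lower (median -2.31, all genes -0.116). Called in either direction were 15 of 18, near the 77.2% of all genes, and 17 of 18, where 69.7% of all genes were called. *Il6* rose the most in actB, from 0.0858 ± 0.0657 RPKM in nB, to 2.80 ± 0.156 RPKM (3.20 ± 0.30, adjusted p = 6.67e-07). At so low a level the size of this difference depends on the value of 0.25 added. The chemokine receptor gene *Ccr7* fell the most, from 198.5 ± 34.6 to 40.9 ± 10.1 RPKM (-2.29 ± 0.37, adjusted p = 8.83e-05). In Pb against actB *Irf4*, a transcription factor that plasma cells need, rose from 109 ± 2.71 to 372 ± 17.0 RPKM (1.76 ± 0.06, adjusted p = 2.36e-10), and *Lta*, the lymphotoxin gene, fell from 16.8 ± 2.62 to 1.62 ± 0.249 RPKM (-3.19 ± 0.36, adjusted p = 5.91e-06). The targets are also controlled by other factors. The near-identical copies *Bcl2a1a*, *Bcl2a1b*, and *Bcl2a1d* are each counted in the list. All were called higher in actB than in nB and lower in Pb than in actB.

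**Figure D4:**
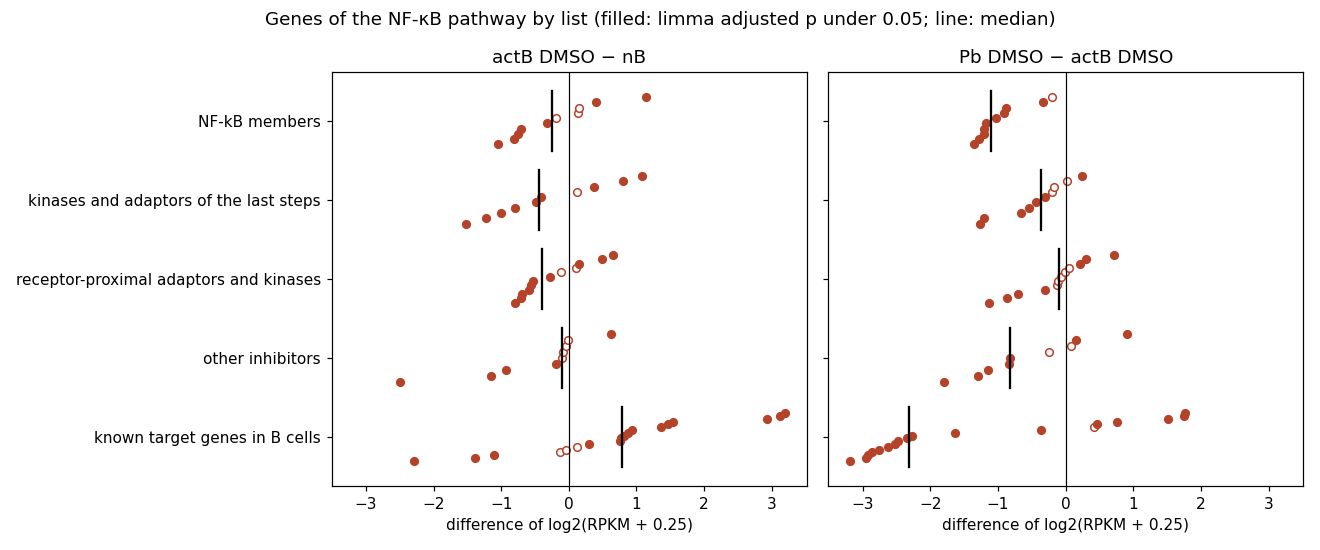
Each point is a gene of 1 of 5 lists, placed by its difference of log2(RPKM + 0.25) in actB with DMSO against nB (left) and in Pb with DMSO against actB with DMSO (right), filled where the adjusted p was below 0.05, with a line at the median of the list. The target genes lie mostly above 0 on the left (median 0.79) and mostly below 0 on the right (median -2.31).

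GSK343 inhibits EZH2, the enzyme that sets H3K27me3, a mark of silenced genes, and the comparison with DMSO asks whether the NF-κB genes respond. In actB no member was called by limma, against 10.4% of all genes. At an unadjusted p below 0.05 there was 1 member, against 25% of all genes, and edgeR on recovered reads called none, against 11.1%. The differences ran from -0.199 to 0.097, and no 95% confidence interval reached a change of more than 1.3-fold.

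*Rel* was the member with the smallest p in actB. It had 30.5, 33.4, and 29.2 RPKM with DMSO and 25.6, 29.5, and 26.0 RPKM with GSK343, so that the groups overlapped. The difference was -0.20, with a 95% confidence interval from -0.38 to -0.02 (limma adjusted p = 0.147). Between libraries of the same number it was lower in 3 of 3, by 11% to 16%. With the replicate block its adjusted p was 0.0702, where 19.9% of all genes were called. It was called in edgeR with the block (adjusted p = 0.0186, 24.4% of all genes) and in limma without the libraries numbered 2 (adjusted p = 0.0359, 15.4% of all genes).

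The other members in actB differed by less. *Rela* had 31.3, 32.1, and 31.9 RPKM with DMSO and 32.1, 32.1, and 31.2 RPKM with GSK343, with an interval from -0.10 to 0.10. *Nfkb1* had 88.9, 86.8, and 84.9 RPKM with GSK343 (interval -0.19 to 0.06), *Nfkbia* 155, 170.1, and 142 RPKM (-0.24 to 0.08), and *Bcl3* 72.0, 62.8, and 60.4 RPKM (-0.12 to 0.32). *Nfkb2* had 36.0, 38.8, and 33.0 RPKM (-0.28 to 0.04). Between libraries of the same number *Nfkb2* was lower with GSK343 in 3 of 3 pairs (-13.5% to -2.89%), as was *Nfkbia* (-11% to -1.64%), with neither called by the replicate block. For these genes, as for *Rel*, pairs so few can agree without an effect, and the pairing is uncertain. The share of all genes whose pairs agree is not given here. The levels of *Relb*, *Nfkbib*, *Nfkbie*, and *Tnfaip3* overlapped between the groups, with adjusted p between 0.657 and 0.967. These intervals hold 0 and values to either side of it, and they do not show that the levels are the same. In actB with GSK343 the myeloid markers summed to 8.34 to 14.2 RPKM, above the 4.18 to 5.47 RPKM with DMSO, of which *Itgam* alone held 6.60 to 12.8 RPKM. The plasmablast markers summed to 549.6 to 669 RPKM with GSK343 and 485 to 522 RPKM with DMSO, with 2 of 6 called higher and 5 of 6 with the replicate block. *Rel* and 8 other members were lower in Pb than in actB. The part of either marker list in these values was not tested.

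In Pb no member was called by limma either, against 12.9% of all genes. At an unadjusted p below 0.05 there were 2 members, *Nfkbib* and *Nfkbie*, against 26.9% of all genes, and edgeR called none, against 13.5%. *Nfkbib* had 19.9, 16.5, and 18.5 RPKM with DMSO and 23.0, 20.8, and 21.1 RPKM with GSK343, where all libraries were higher. The difference was 0.24, with an interval from 0.01 to 0.47 (adjusted p = 0.163), and with the same number it was higher in 3 of 3 pairs, by 13.7% to 26.3%. The replicate block called it (adjusted p = 0.0108), the only member called in that fit, against 23.2% of all genes, and so did edgeR with the block (adjusted p = 0.0156), against 25.2%.

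*Nfkbie* had 20.7, 18.4, and 21.5 RPKM with DMSO and 23.7, 24.4, and 24.1 RPKM with GSK343, again with no overlap. The difference was 0.25, with an interval from 0.03 to 0.47 (adjusted p = 0.129, and 0.077 with the replicate block). Without the libraries numbered 2 it was smaller, 0.18, and was called (adjusted p = 0.0264), where 17.5% of all genes were called. *Rela* was also higher in all 3 libraries, with 24.6 to 25.8 RPKM against 26.0 to 27.0 RPKM (0.08, interval -0.02 to 0.18, adjusted p = 0.307). In groups of 3 libraries genes can lie apart without an effect. The share of all genes that do so, or whose same-numbered pairs all agree, is not given here.

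For the other 7 members the libraries of Pb with GSK343 and DMSO overlapped. *Nfkbia*, for example, had 84.6, 99.9, and 85.7 RPKM with GSK343 and 87.9 to 89.5 RPKM with DMSO (interval -0.15 to 0.17). *Nfkb1* had 31.5, 35.2, and 36.1 RPKM with GSK343 (interval -0.18 to 0.07), and *Tnfaip3* had 15.9, 16.7, and 18.3 RPKM (interval -0.14 to 0.22). *Nfkb2* (17.9 to 18.6 RPKM), *Rel* (13.5 to 14.8 RPKM), *Relb* (8.69 to 9.06 RPKM), and *Bcl3* (20.8 to 25.7 RPKM) had adjusted p between 0.252 and 0.659. No interval of the 10 members reached a change of more than 1.39-fold. The B cell markers summed to 746 to 880 RPKM with GSK343 and 908 to 931 RPKM with DMSO, with 3 of 6 lower (4 of 6 with the replicate block), and their part in these values was not tested.

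The effect of GSK343 in Pb was compared with that in actB by an interaction term. No member was called, against 0.248% of all genes in limma, 1.23% with the replicate block, and 0.278% in edgeR, which called none either. At an unadjusted p below 0.05 there was 1 member, against 9% of all genes. This was *Nfkb2*, with -0.12 in actB and 0.13 in Pb and a difference of these effects of 0.24 (interval 0.02 to 0.47, limma adjusted p = 0.514). In both cell types the libraries of *Nfkb2* overlapped between DMSO and GSK343.

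**Figure D5:**
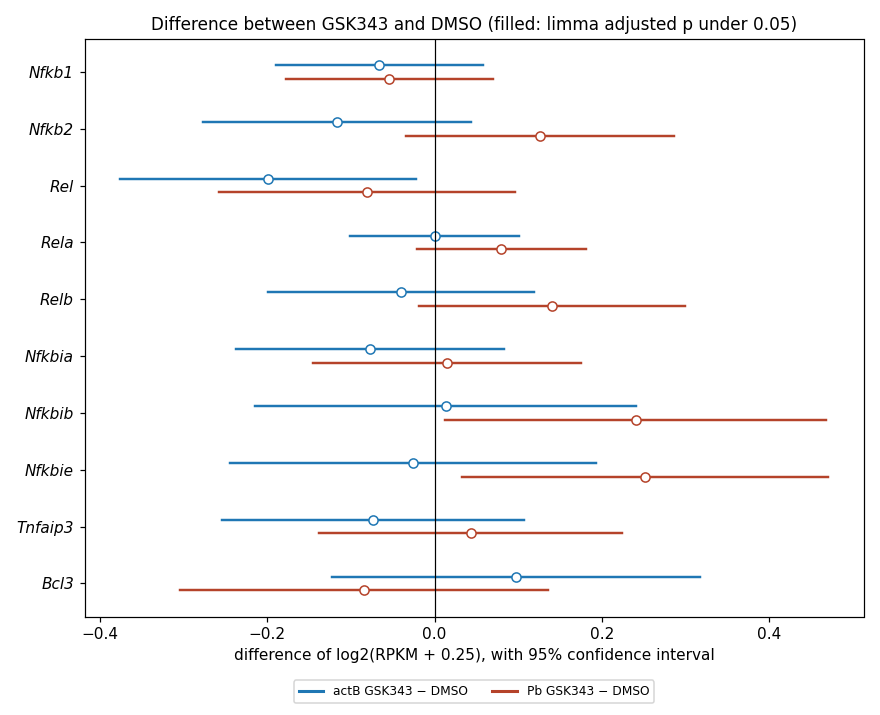
Differences of log2(RPKM + 0.25) between GSK343 and DMSO are plotted for each gene in actB and in Pb with 95% confidence intervals, and open points mark an adjusted p of 0.05 or above. All 20 points are open, those in actB run from -0.199 to 0.097, and *Nfkbib* and *Nfkbie* in Pb lie highest.

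Of the other pathway genes a few were called with GSK343, beside a share over all genes of 10.4% in actB and 12.9% in Pb. In actB these were *Map3k7*, the kinase TAK1 (20.2 ± 0.654 RPKM with DMSO and 22.9 ± 0.369 RPKM with GSK343, 0.18 ± 0.04, adjusted p = 0.0169), and among the 18 targets *Ccnd2* (0.22 ± 0.05, adjusted p = 0.0118) and *Bcl2l1* (0.25 ± 0.07, adjusted p = 0.0309), which encode cyclin D2 and the survival protein BCL-xL. All 3 were higher, and they were the genes of the 4 lists that limma called in actB. With the replicate block 2 receptor-proximal genes were higher, and of the targets 3 were higher and 1 was lower, where 19.9% of all genes were called.

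In Pb *Birc3*, the ubiquitin ligase cIAP2, had 28.9 ± 0.2499 RPKM with DMSO and 24.5 ± 0.787 RPKM with GSK343 (-0.24 ± 0.04, adjusted p = 0.0037). *Tbk1* had 47.9 ± 1.16 and 41.0 ± 1.53 RPKM (-0.22 ± 0.04, adjusted p = 0.00595). *Nfkbid* had 11.3 ± 1.16 and 7.68 ± 0.588 RPKM (-0.54 ± 0.10, adjusted p = 0.0055). Of the 9 genes listed as other inhibitors, the 1 that fell the most in actB against nB was thus also the 1 called here. With the replicate block 2 of the 9 other inhibitors were lower and 1 of the 12 receptor-proximal genes was higher, where 23.2% of all genes were called.

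Among the 18 targets in Pb 1 was higher and 4 were lower with GSK343, where 7.9% of all genes were higher and 5% lower. With the replicate block 1 was higher and 8 were lower, where 23.2% of all genes were called in either direction. *Cd44*, an adhesion receptor, rose from 67.6 ± 3.74 to 93.1 ± 2.78 RPKM (0.46 ± 0.08, adjusted p = 0.00375). *Irf4* fell from 372 ± 17.0 to 313 ± 11.6 RPKM (-0.25 ± 0.06, adjusted p = 0.0225), and *Traf1* from 16.3 ± 0.825 to 12.7 ± 1.08 RPKM (-0.36 ± 0.11, adjusted p = 0.0465). *Bcl2a1a* (-0.70 ± 0.15, adjusted p = 0.0121) and *Bcl2a1d* (-0.57 ± 0.13, adjusted p = 0.0144) were lower as well. These 2 genes and *Bcl2a1b* are near-identical copies, between which reads can be split, and their separate values are uncertain. Each copy counts as a gene of the list, so that the counts over the targets can hold the same signal more than once.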

How the data were processed

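Values for 15 RNA-seq libraries were deposited by the authors as RPM (reads scaled to the total counted in each library). The table carries RPKM in its name, but its values are not divided by gene length. Poly(A) RNA had been sequenced, reads mapped to mm9 with TopHat2, and those over exons of each gene counted. From 99.995% to 100% of values were whole numbers of reads within 0.0006 RPM. RPKM was computed here as RPM per kilobase of the deposited gene length, 92 genes with no symbol (at most 0.0905% of reads) were left out, and 3 reads, the limit for a gene at 0, were 0.114 to 0.154 RPM, counting error only.

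limma 3.58.1 in R 4.3.3 (lmFit, contrasts, eBayes with a trend) was fitted to log2(RPKM + 0.25) of 14 libraries in all 5 groups, for genes with at least 1 RPKM in at least 3 columns (11299 genes, 9 residual degrees of freedom, two-sided). Adjusted p-values are from it unless edgeR 4.0.16 is named, which was run on the recovered reads of 11146 genes. Errors are SE for differences and SD for levels. The fit was tested on simulated reads with known changes. These had the same spread beyond counting error for all genes and no effect of the replicate number. They do not give the error rates for the libraries used here.

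Replicate numbers come from the labels. Deviations from the group mean correlated at 0.158 to 0.713 over 18 pairs of cultured libraries with the same number. Over 36 pairs with different numbers they correlated at -0.603 to 0.37. The ranges overlap, and number 2 gave the highest values (0.435 to 0.713). The labels do not say that the number pairs the samples, so the pairing is uncertain and the main fit left the number out. Values with the number as a block are given where the call of a member changed, or a count over a list moved by more than 1.5 times. In that fit the merged nB library took the mean of both its block terms.

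The members, the gene lists, and the rule for named genes were chosen with earlier results of these data known. Named were all 10 members, the genes of each list with the largest called rise and fall in each of the first 2 comparisons, every listed gene called with GSK343, and the 2 genes most like each member among genes with at least 2 RPKM in a group. A few genes that this rule names are not reported here.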

Additional observations from a re-analysis of the deposited data

How the results depend on the processing

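Each result was recomputed under 19 to 26 other settings, 5 to 12 of which left out 1 library of the groups compared. Others changed the value added before the logarithm (0.05 or 1), the filter, the scaling, the trend, the groups in the fit, the replicate block, the merging of the nB columns, or the tool, and edgeR with the block and leaving out number 2 were chosen after seeing the data. In the comparisons between stages 562 of 580 member differences kept direction and side of the threshold, and the members called stayed at 6 to 7, 9 to 10, and 8 to 9 when 1 library was left out. *Nfkb1* in actB against nB was -0.00384 under quantile normalization, and *Bcl3* in Pb against nB ran from -0.29 to 0.00993 without 1 library. With GSK343 626 of 660 differences kept both. Without 1 library no member was called. In actB 1 member was called in edgeR with the block and without number 2, and in Pb 1 with the replicate block, in edgeR with the block, and without number 2. Beside the calls given in the report the block changed no other call of a member, and it moved the counts of the pathway lists between stages by at most 1 gene in a direction. Of all genes, 1170 were called in actB, 386 with the compared groups alone, 2248 with the replicate block, 2717 in edgeR with the block, and 608 (without actB DMSO replicate 1) to 1363 without 1 library. In Pb 1458 were called, 2626 with the block, 2814 in edgeR with the block, and 690 (without Pb GSK343 replicate 3) to 1304 without 1 library. The interaction called 28 genes, 18 under quantile normalization, 4 with the compared groups alone, 139 with the block, 48 with all 15 columns, 233 in edgeR with the block, 146 without number 2, and 0 (without replicate 3 of any cultured group or actB DMSO replicate 1) to 58 (without Pb GSK343 replicate 2) without 1 library. Small GSK343 differences changed sign. In actB *Nfkbib* (0.013) was -0.0202 under median scaling, -0.00451 under quantile normalization, -0.017 in edgeR with TMM, -0.020002 with RLE, -0.019 with the block in edgeR, and -0.078 to 0.092 without 1 library. *Rela* ran from -0.0101 to 0.013 and *Nfkbie* from -0.13 to 0.084 without 1 library, and *Rela* was 0.000586 without number 2. In Pb *Nfkbia* was -0.0064 under quantile normalization, -0.058 without number 2, and -0.062 to 0.058 without 1 library. *Tnfaip3* was -0.026 without number 2 and -0.035 to 0.091 without 1 library, *Rel* was 0.034 without number 2, *Nfkb1* ran from -0.0999 to 0.00471, and *Bcl3* from -0.15 to 0.00148. The interaction of *Nfkb1* was -0.069 without number 2 and -0.034 to 0.071 without 1 library. The cause of these changes was not tested.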
